A study of Mus musculus with 8 samples.

Results

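The cyclin-dependent kinase inhibitors are the 7 genes Cdkn1a, Cdkn1b, Cdkn1c, Cdkn2a, Cdkn2b, Cdkn2c and Cdkn2d. They were taken from the deposited gene table by gene name, 7 of the 34745 genes listed, and each name stood on a single entry. All 7 had enough counts to be tested, as did 16576 genes in all, although for Cdkn2a this rested on the group where it was high. Messenger RNA was sequenced from kidney of wild-type (WT) mice at day 14, and the series title names renal senescence among its subjects. The 8 libraries were sham-operated kidney (sham, n = 2), kidney with the injury labelled uIRI (n = 3), and kidney with the same injury and MSC transplantation (uIRI+MSC, n = 3). The uIRI+MSC group thus carries the injury as well, and MSC without the injury was not analysed here. In renal work uIRI usually means unilateral ischaemia-reperfusion injury and MSC mesenchymal stem or stromal cells, but the labels spell out neither. The sources used here do not give the strain, sex and age of the mice, nor the source, dose and timing of the cells. Nothing states that each library is a separate animal, so p-values measure only how far these samples spread, which may be technical.

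Cyclin-dependent kinases drive a cell from one stage of its division cycle to the next once a cyclin binds them, and the inhibitors hold them back. The Cip/Kip proteins p21, p27 and p57, encoded by Cdkn1a, Cdkn1b and Cdkn1c, bind cyclin and kinase together and act on several such complexes. The INK4 proteins p16, p15, p18 and p19Ink4d, encoded by Cdkn2a, Cdkn2b, Cdkn2c and Cdkn2d, bind the kinases CDK4 and CDK6 and keep D-type cyclins off them. Without active CDK4, CDK6 and CDK2 the pocket protein RB stays bound to E2F factors, and genes of DNA replication stay low. A lasting rise of p21 or p16 is widely used as a sign of senescence, a durable arrest that has been described in kidney tubules after injury.

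Depth ran from 11.6 to 24.3 per library, in units of 1e6 counts. Kidney markers were present throughout. The summed level of 8 proximal tubule genes was, as CPM (counts per 1e6 counts of the library), 36200 to 49500 (sham), 1750 to 6330 (uIRI) and 9470 to 13400 (uIRI+MSC). Mitochondrially encoded transcripts took 14.2% of each sham library and 3.49 to 4.84% of a uIRI library, against 6.07, 6.24 and 11.3% for uIRI+MSC 1, 2 and 3. The libraries uIRI 1 and uIRI+MSC 3 stood farthest from the other libraries of their groups. Pairs that hold one of them differed by 64.9 to 90.8 times the variance of counting and the other pairs of a group by 24.3 to 42.6 times, so values without them are given where a call or a direction of an inhibitor turned on them. Values of the genes of the lists without these 2 libraries are not given. All CPM values are scaled between libraries by the trimmed mean of M-values (TMM). They serve to compare 1 gene across libraries and not different genes, whose lengths differ.

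Injury was accompanied by higher transcript levels of 4 of the 7 inhibitors and lower levels of none. Cdkn1a, Cdkn2b, Cdkn2a and Cdkn1c passed the test in uIRI against sham, that is, an adjusted p below 0.05 in edgeR's quasi-likelihood test with Benjamini-Hochberg adjustment over all tested genes. Cdkn1b, Cdkn2c and Cdkn2d did not. The counts that let Cdkn2a be tested were those of uIRI, the group where it was high. Among all genes tested, 28.3% passed as higher and 26.3% as lower, so more than 1 gene in 4 was called higher in this comparison. When libraries were scaled by library size alone the split of all genes became 54.6% higher and 12% lower, and all 7 inhibitors passed as higher. The median log2 change was 0.84 over the inhibitors and 0.06 over all genes tested. For 6 of the 7 genes, all but Cdkn1b, every uIRI library lay above both sham libraries, which held in that direction for 40.6% of all genes. In whole tissue, a change in the number of cells of a type and a change in RNA per cell cannot be told apart.

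In uIRI+MSC against uIRI no inhibitor passed the edgeR test, and 4 genes were lower in each uIRI+MSC library than in any uIRI library. These 4 were Cdkn1a, Cdkn1c, Cdkn2a and Cdkn2b, the ones that had risen with injury, and uIRI is a side of both comparisons. Groups did not overlap in that direction for 12.7% of all genes. The test called 0% of all 16576 genes, although 3418 of them, among them these 4, had an unadjusted p under 0.05. DESeq2 called 3 of the inhibitors lower, Cdkn1a, Cdkn2a and Cdkn2b, against 3.38% of all genes called lower, and limma-voom called none. The median log2 difference over the inhibitors was -0.68, and over all genes -0.01.

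In uIRI+MSC against sham, Cdkn1a and Cdkn2a were higher and the other 5 genes did not pass. Cdkn2a was in this test only through the uIRI libraries, which belong to neither group compared. Of all genes, 22.1% passed as higher and 20.3% as lower, and with library size alone 44.6% and 8.16%. The mean CPM of uIRI+MSC lay between those of sham and uIRI for Cdkn1a, Cdkn1c, Cdkn2a, Cdkn2b and Cdkn2d, and not for Cdkn1b and Cdkn2c. How many of all genes have such a position was not computed. For Cdkn1c and Cdkn2d the log2 difference from sham was small beside its SE (0.10 ± 0.28 and 0.15 ± 0.36).

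**Figure D1:**
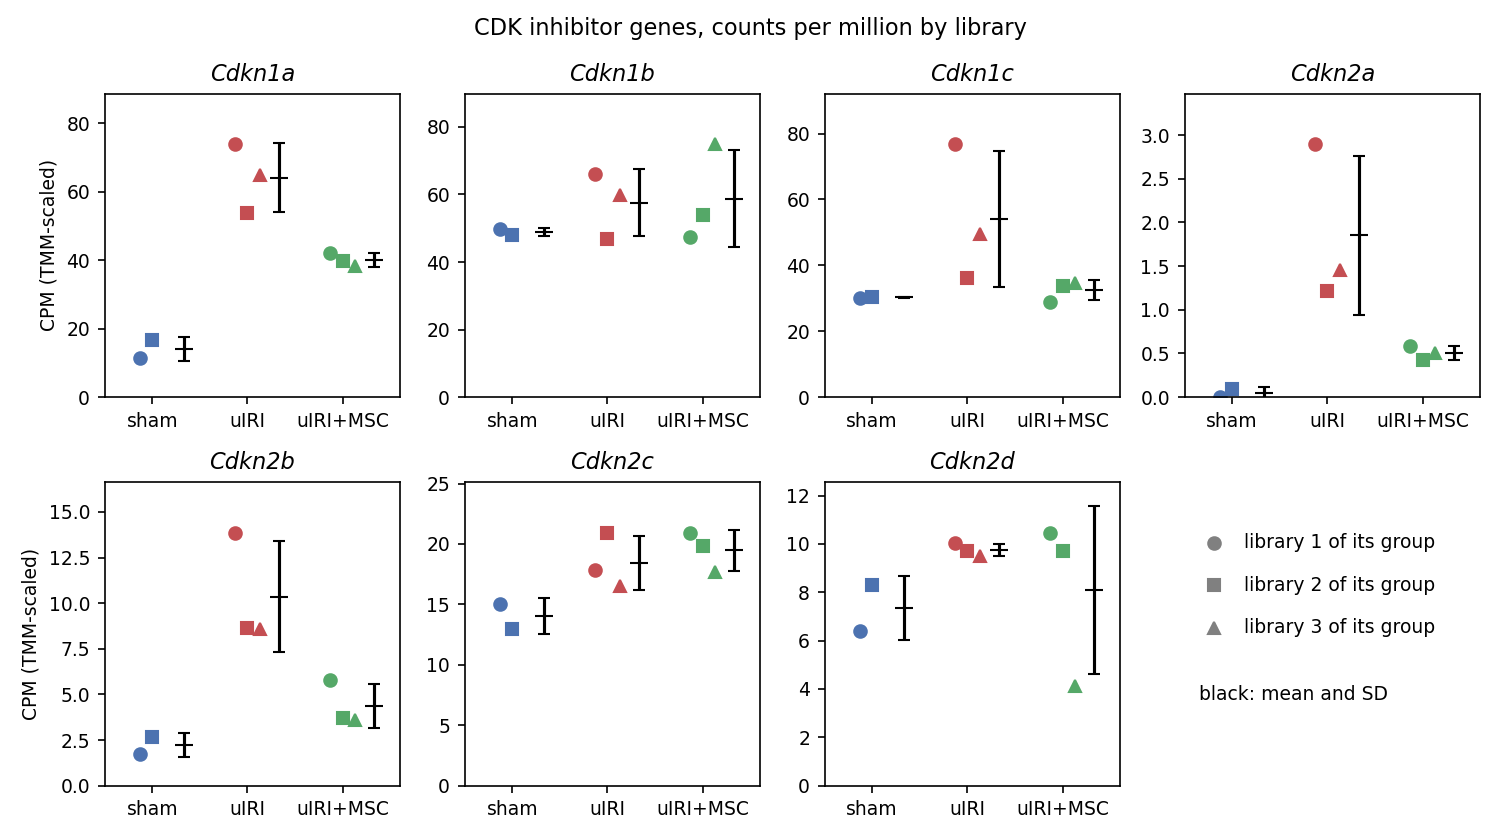
TMM-scaled CPM (y axis, linear and from 0, a separate scale for each gene) of the 7 inhibitor genes in each sham, uIRI and uIRI+MSC library (x axis), with circles, squares and triangles for libraries 1, 2 and 3 of a group and black bars for mean and SD. Cdkn1a, Cdkn1c, Cdkn2a and Cdkn2b show all uIRI libraries above all sham and uIRI+MSC libraries, and uIRI 1 is the highest library in these 4 panels.

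Cdkn1a (ENSMUSG00000023067, GRCm38 chromosome 17, 29090979 to 29100722, plus strand) encodes p21, the inhibitor that p53 and many stress signals are known to induce. Its level was 11.6 and 16.6 CPM in the sham libraries, 73.8, 53.6 and 64.8 in uIRI 1, 2 and 3, and 42.1, 39.6 and 38.1 in uIRI+MSC 1, 2 and 3. The 3 groups did not overlap, with uIRI highest, uIRI+MSC in the middle and sham lowest, and uIRI+MSC varied least, with a coefficient of variation of 5.06%. From sham to uIRI the gene rose by 2.19 ± 0.21 on the log2 scale (SE, adjusted p = 7.95e-05), from 14.1 ± 3.54 to 64.1 ± 10.1 CPM (SD). In uIRI+MSC it stood at 40.0 ± 2.02 CPM, a log2 difference of -0.68 ± 0.17 from uIRI (adjusted p = 0.112, unadjusted 0.00286). It remained above sham by 1.51 ± 0.20 (adjusted p = 0.000709). Over all other settings tried, the adjusted p of Cdkn1a ran from 1.15e-20 to 0.00133 for uIRI against sham and from 0.0089 to 0.245 between the injured groups.

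GENCODE M21 gives Cdkn1a 5 transcripts from separate starts, and the sequences before the starts are shown because the gene had the smallest p of the 7 in uIRI against sham and the counts do not tell the starts apart. RefSeq places promoters of Cdkn1a at 2 starts, and the window of 250 bases before each was read on the plus strand of GRCm38.p6. The first is printed without its last 3 bases, which GENCODE assigns to a transcript. Capitals mark the 2 CATG cores of the pattern CATGNNNNNNCATG in the upstream window and the letters GGGCGG, known as a GC box, in the downstream one.
Cdkn1a upstream start, chr17:29090729-29090975, plus strand: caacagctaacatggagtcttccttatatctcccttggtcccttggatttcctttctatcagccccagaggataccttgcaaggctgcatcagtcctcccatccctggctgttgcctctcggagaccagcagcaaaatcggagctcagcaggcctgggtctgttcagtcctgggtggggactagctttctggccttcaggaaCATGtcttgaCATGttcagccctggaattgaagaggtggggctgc
Cdkn1a downstream start, chr17:29093519-29093768, plus strand: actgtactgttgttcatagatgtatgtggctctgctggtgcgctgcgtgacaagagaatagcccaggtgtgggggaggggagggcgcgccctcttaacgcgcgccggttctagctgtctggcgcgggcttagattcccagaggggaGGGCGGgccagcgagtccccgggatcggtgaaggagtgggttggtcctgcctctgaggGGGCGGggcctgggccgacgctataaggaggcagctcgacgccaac
The paired CATG cores begin 48 bases before the upstream start. Elements to which p53 is known to bind can hold such a pair, and the pattern, which reads alike on both strands, was in 161 of 32841 RefSeq promoter windows of the same length (0.49%). The downstream window held GGGCGG at 2 places, and 32.7% of all windows held it on either strand. Windows before 9 starts of 6 inhibitors, Cdkn1a, Cdkn1b, Cdkn2a, Cdkn2b, Cdkn2c and Cdkn2d, were searched on both strands for these patterns and for TTTGGCGC, TTTCGCGC (E2F-like letters) and TATAAA. The upstream Cdkn1a window was the only one of the 9 with the paired CATG, none held the last 3 patterns (in 0.417%, 0.256% and 12.4% of all windows), and no window held 2 different ones. These are matches of letters in short windows, and the patterns were chosen with the genes in view.

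Cdkn1b (ENSMUSG00000003031, chromosome 6, 134920401 to 134925513, plus strand) encodes p27, which holds resting cells out of the cycle and is known to be governed largely by protein turnover. It measured 49.6 and 48.1 CPM in sham, 66.2, 46.9 and 59.8 in uIRI, and 47.5, 54.0 and 74.9 in uIRI+MSC. In TMM-scaled CPM all 3 groups overlapped, the lowest library was uIRI 2 and the highest uIRI+MSC 3. The log2 differences were 0.24 ± 0.22 for uIRI against sham (adjusted p = 0.381), 0.27 ± 0.22 for uIRI+MSC against sham (0.357) and 0.03 ± 0.19 between the injured groups (0.955). Without uIRI+MSC 3 the difference between uIRI+MSC and uIRI was -0.17, and without uIRI 2 it was -0.10. With library size alone both injured groups passed as higher than sham (uIRI 0.91, adjusted p = 0.00725, and uIRI+MSC 0.78, 0.0201).

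Cdkn1c (ENSMUSG00000037664, chromosome 7, 143458350 to 143461050, minus strand) is imprinted, with expression from the maternal copy, and encodes p57, known in adult kidney from podocytes, the filter cells of the glomerulus. Its level was 30.2 and 30.4 CPM in sham, 76.8, 36.3 and 49.4 in uIRI 1, 2 and 3, and 29.0, 33.7 and 34.6 in uIRI+MSC. The uIRI libraries lay above all others but were spread widely, with a coefficient of variation of 38.2% and uIRI 1 at 2.12 times uIRI 2. The rise from sham to uIRI was 0.84 ± 0.28 on the log2 scale (adjusted p = 0.0324). The call was lost without uIRI 1 (0.50, adjusted p = 0.0585), without sham 1 (0.85, 0.123), without sham 2 (0.86, 0.110), with limma-voom (0.77, 0.0629), with a replicate block (0.80, 0.0691) and when only the 2 groups were fitted (0.86, 0.0579). The uIRI+MSC libraries differed from uIRI by -0.74 ± 0.24 (adjusted p = 0.155, unadjusted 0.015) and from sham by 0.10 ± 0.28 (adjusted p = 0.801). Without uIRI 1 the difference from uIRI was -0.41 (adjusted p = 0.387).

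Podocyte markers were measured beside Cdkn1c. Their summed level over 5 genes (Nphs1, Podxl, Synpo, Wt1 and Ptpro, none of them at 0 in any library) was 391 to 537 CPM (sham), 532 to 692 (uIRI) and 518 to 578 (uIRI+MSC). In uIRI against sham 2 of the 5 passed as higher and none as lower, beside 28.3% and 26.3% of all genes. With library size alone 4 passed as higher, beside 54.6% of all genes. The ratio of Cdkn1c to that sum was 0.0772 and 0.0565 in sham, 0.118, 0.0682 and 0.0715 in uIRI, and 0.0551, 0.0583 and 0.0667 in uIRI+MSC. Only uIRI 1 lay outside the range of the sham ratios among the uIRI libraries, and the part of podocytes in the level of Cdkn1c was not tested. GENCODE also places the antisense gene Gm44732 over 892 bases of Cdkn1c, and AC167363.2 over 1046 bases of Cdkn1a on the other strand. The sources used here do not state the strand setting of the counting, so reads from these partners cannot be told apart from those of the inhibitors.

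Of 11 listed neighbours of Cdkn1c in its imprinted cluster 9 could be tested, and in uIRI against sham 1 rose, 2 fell and 6 did not pass. Among all genes 28.3% passed as higher and 26.3% as lower. Slc22a18, a transporter gene, fell by 3.52 ± 0.42 (adjusted p = 0.00023), and Phlda2, a growth-restraining gene that like Cdkn1c is expressed from the maternal copy, fell by 3.14 ± 0.51 (0.000951). Kcnq1ot1, the long noncoding RNA that silences the cluster on the paternal copy, rose by 0.68 ± 0.24 (0.0402), and the potassium channel gene Kcnq1 stood at -0.28 ± 0.16 (0.180). With library size alone 4 of the 9 were higher and 2 lower, beside 54.6% and 12% of all genes. Kcnq1 then stood at 0.38 without passing (0.076). Slc22a18 and Phlda2 were lower under either scaling (-2.86 and -2.49 with library size alone), and Cdkn1c was higher.

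Cdkn2b (ENSMUSG00000073802, chromosome 4, 89306289 to 89311032, minus strand) encodes p15, the INK4 protein known to be induced by TGF-beta. It measured 1.75 and 2.67 CPM in sham, 13.9, 8.65 and 8.57 in uIRI 1, 2 and 3, and 5.78, 3.72 and 3.61 in uIRI+MSC 1, 2 and 3. The 3 groups did not overlap and had the same order as for Cdkn1a. The rise from sham to uIRI was 2.23 ± 0.38 on the log2 scale (adjusted p = 0.00121), from 2.21 ± 0.65 to 10.4 ± 3.04 CPM. The uIRI+MSC libraries, at 4.37 ± 1.22 CPM, differed from uIRI by -1.23 ± 0.30 (adjusted p = 0.112, unadjusted 0.0027) and from sham by 0.99 ± 0.37 (adjusted p = 0.0597). The last difference passed with library size alone (1.499, adjusted p = 0.0136), with DESeq2 (0.97, 0.0451) and without uIRI 1 (0.99, 0.045), a library of neither group compared.

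Cdkn2a (ENSMUSG00000044303, chromosome 4, 89274471 to 89294653, minus strand) lies beside Cdkn2b and encodes p16 from one start and, in another reading frame, the p53-stabilising protein Arf from a second start farther upstream. The gene had 0 and 1 counts in the sham libraries, 86, 33 and 31 in uIRI 1, 2 and 3, and 14, 6 and 6 in uIRI+MSC 1, 2 and 3. In CPM this was 0 and 0.0921 in sham, 2.90, 1.21 and 1.46 in uIRI, and 0.586, 0.429 and 0.504 in uIRI+MSC, again without overlap. The gene passed the count filter through uIRI, so the group where it was high decided that it was tested. With 1 count in all of sham, the ratio of uIRI to sham was 40.6, with a 95% interval of 7.17 to 1610 that covers counting error only (adjusted p = 0.00143). The ratio of uIRI+MSC to sham was 11 (1.82 to 453, adjusted p = 0.0312). This call was lost without uIRI+MSC 1 (adjusted p = 0.069), without uIRI+MSC 3 (0.0509), with DESeq2 (0.0632), with limma-voom (0.0618) and with legacy=FALSE in edgeR (0.0705). The call was also lost without sham 1, which left sham 2 with its 1 count as the only sham library. Leaving out 1 library at a time gave log2 differences from 2.43 to 6.37. Between uIRI+MSC and uIRI the log2 difference was -1.85 ± 0.48 (adjusted p = 0.120, unadjusted 0.00414).

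GENCODE lists 2 transcripts of Cdkn2a, one from base 89282192 (p16) and one from base 89294653 (Arf), which share their last exons, and the deposited count is for the whole gene. The rise is therefore a rise of the locus, and its division between p16 and Arf cannot be read from the table. The windows before both starts, and before that of Cdkn2b, show how unlike they are, in RefSeq's GRCm38.p6 coordinates and read on the minus strand. Capitals mark GGGCGG, and bases that GENCODE assigns to a transcript, 34 for Arf and 7 for Cdkn2b, are left out.
Cdkn2a p16 start, chr4:89282193-89282442, minus strand: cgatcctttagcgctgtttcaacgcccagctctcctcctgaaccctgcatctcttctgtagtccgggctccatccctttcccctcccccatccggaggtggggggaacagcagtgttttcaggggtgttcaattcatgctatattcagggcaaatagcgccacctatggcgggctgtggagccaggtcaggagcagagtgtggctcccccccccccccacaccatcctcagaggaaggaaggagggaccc
Cdkn2a Arf start, chr4:89294654-89294869, minus strand: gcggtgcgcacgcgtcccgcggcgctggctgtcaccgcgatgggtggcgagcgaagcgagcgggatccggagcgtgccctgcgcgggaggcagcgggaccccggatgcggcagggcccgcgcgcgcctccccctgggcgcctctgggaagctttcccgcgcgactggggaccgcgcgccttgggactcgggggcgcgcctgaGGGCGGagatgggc
Cdkn2b start, chr4:89311040-89311282, minus strand: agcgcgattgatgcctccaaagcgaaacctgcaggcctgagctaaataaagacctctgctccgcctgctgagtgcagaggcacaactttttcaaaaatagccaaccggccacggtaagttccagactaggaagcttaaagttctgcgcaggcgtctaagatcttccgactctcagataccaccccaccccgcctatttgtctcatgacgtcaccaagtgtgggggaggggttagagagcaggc
Over the full windows of 250 bases the Arf start had 78.4% C and G with 40 CG pairs and GGGCGG at 2 places, one of them in the bases left out. The p16 start had 60.0% with 7 CG pairs and the Cdkn2b start 53.6% with 12, both without GGGCGG. The median of all windows was 52.4% and 6 CG pairs. The longest run of bases shared exactly by transcripts of Cdkn2a and Cdkn2b was 23, the most for any pair of the 7 genes together with Cdkn1a and Cdkn1b. Of 4 other listed neighbours only Mtap, which encodes a salvage enzyme for methionine, had enough counts to be tested, and it stood at -0.06 ± 0.13 in uIRI against sham (adjusted p = 0.711), but at 0.61 and passing with library size alone (0.00256).

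Cdkn2c (ENSMUSG00000028551, chromosome 4, 109660876 to 109667189, minus strand) encodes p18. It measured 15.1 and 13.0 CPM in sham, 17.8, 20.9 and 16.5 in uIRI, and 20.9, 19.8 and 17.6 in uIRI+MSC. Both injured groups lay above sham and overlapped each other. The log2 differences were 0.40 ± 0.17 for uIRI against sham (adjusted p = 0.0809), 0.48 ± 0.17 for uIRI+MSC against sham (0.0545) and 0.08 ± 0.15 between the injured groups (0.798). The first passed with library size alone (1.06, adjusted p = 0.000806). The second passed without uIRI+MSC 3 (0.57, adjusted p = 0.0318), with the stricter filter of 50 counts in 2 libraries (0.48, 0.0483) and with library size alone (0.99, 0.0019).

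Cdkn2d (ENSMUSG00000096472, chromosome 9, 21288463 to 21291209, minus strand) encodes p19Ink4d, which is distinct from the Arf product of Cdkn2a. It measured 6.41 and 8.29 CPM in sham, 10.03, 9.72 and 9.51 in uIRI, and 10.5, 9.72 and 4.12 in uIRI+MSC. The uIRI libraries were tight and above sham, while uIRI+MSC 3 was the lowest of all 8. The log2 differences were 0.41 ± 0.36 (uIRI against sham, adjusted p = 0.364), 0.15 ± 0.36 (uIRI+MSC against sham, 0.762) and -0.26 ± 0.31 between the injured groups (0.678). Without uIRI+MSC 3 the last was 0.06, and without uIRI+MSC 1 the second was -0.08. With library size alone the first was 1.07 and passed (adjusted p = 0.0354).

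**Figure D2:**
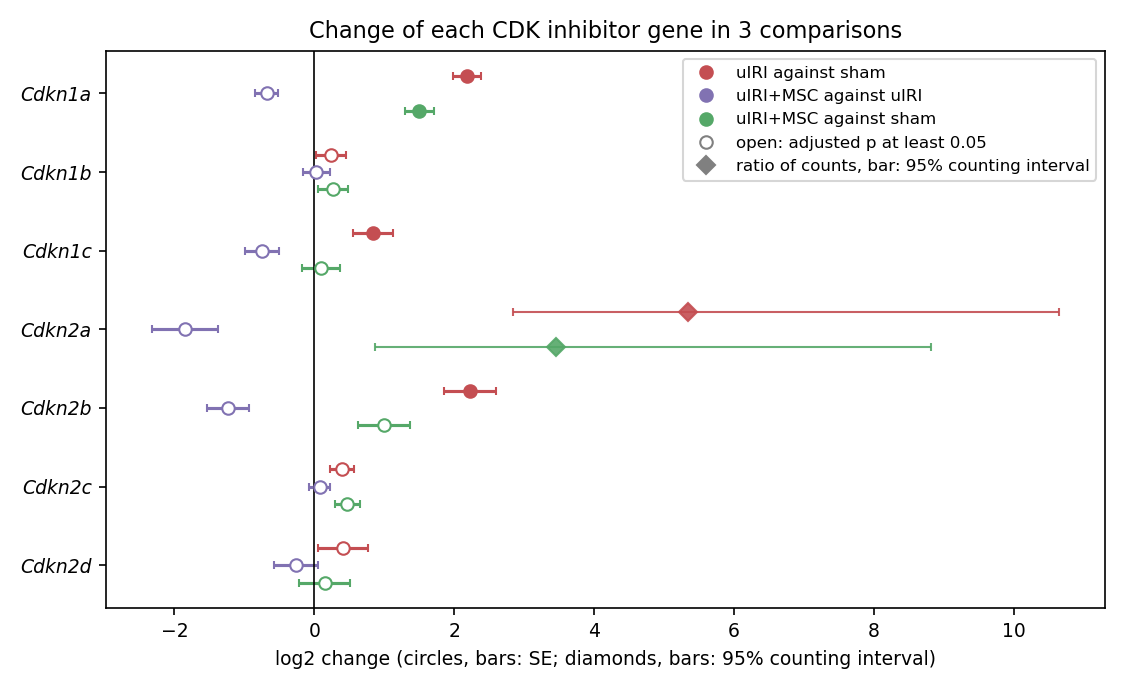
Log2 change of each inhibitor gene (x axis) in the 3 comparisons, as circles with bars of 1 SE, filled where the adjusted p was below 0.05. Diamonds show Cdkn2a against sham as the ratio of counts with its 95% counting interval, and Cdkn1a, Cdkn1c, Cdkn2a and Cdkn2b lie right of 0 in uIRI against sham and left of 0, unfilled, in uIRI+MSC against uIRI.

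Markers of other cell types were also higher in uIRI than in sham. The summed level of 6 fibroblast genes was 233 to 317 CPM (sham), 2590 to 6030 (uIRI) and 1480 to 2740 (uIRI+MSC), with its highest value in uIRI 1, the library that was also highest for Cdkn1a, Cdkn1c, Cdkn2a and Cdkn2b. In uIRI against sham 6 of the 6 fibroblast genes and 6 of the 6 macrophage genes rose, beside 28.3% of all genes. The macrophage sum was 163 to 212 CPM (sham), 1420 to 1950 (uIRI) and 894 to 1040 (uIRI+MSC). It was highest in uIRI 3 (1952) and not in uIRI 1 (1792). The 5 injured tubule genes also all rose with injury. Their sum was 22.1 to 23.5 CPM (sham), 796 to 1340 (uIRI, lowest in uIRI 1) and 1490 to 2550 (uIRI+MSC). The members differed between the injured groups, where at an unadjusted p under 0.05 4 were higher in uIRI+MSC and 1, Lcn2, lower (log2 difference -0.56, adjusted p = 0.209). In that comparison edgeR called 0 of all 16576 genes, so no injured tubule gene passed. DESeq2 called 2 of the 5 higher and 0 lower, where it called 771 of the 16576 genes higher. The sum of 6 endothelial genes was within 364 to 484 CPM in all groups, and none of the 6 was called higher in uIRI against sham and 1 lower. With library size alone 5 of the 6 were higher and none lower, beside 54.6% and 12% of all genes. No fibroblast, macrophage or endothelial gene listed was at 0 in any library, and the part of these cell types in the levels of the inhibitors was not tested.

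Levels of different genes were compared by the deposited FPKM, which divides by gene length. In sham, Cdkn1c was highest at 7.92 FPKM, followed by Cdkn1b at 4.74, Cdkn2d at 4.28, Cdkn2c at 3.64 and Cdkn1a at 3.39, then Cdkn2b at 1.18 and Cdkn2a at 0.0251. The libraries of Cdkn1b, Cdkn2d, Cdkn2c and Cdkn1a overlapped from each gene to the next, whereas the other neighbours in this order did not. In uIRI, Cdkn1a at 24.5 and Cdkn1c at 22.7 FPKM overlapped at the top, Cdkn2d, Cdkn1b, Cdkn2b and Cdkn2c overlapped between 7.61 and 8.97, and Cdkn2a was lowest at 1.56. In uIRI+MSC, Cdkn1a at 13.7 and Cdkn1c at 12.1 again led, followed by Cdkn1b at 8.12, Cdkn2c at 7.24, Cdkn2d at 6.73, Cdkn2b at 3.30 and Cdkn2a at 0.378. Cdkn2a was the lowest of the 7 in each of the 3 groups.

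The share of Cdkn1a in the summed FPKM of the 7 genes was 11.5 and 15.1% in sham, 27.9, 29.8 and 31.4% in uIRI, and 27.1, 26.0 and 26.4% in uIRI+MSC. The uIRI share exceeded that of sham by 16.4 percentage points and the uIRI+MSC share did so by 13.2, each with an exact two-sided permutation p of 0.2, the smallest that 2 against 3 libraries allow. The uIRI+MSC share was 3.18 percentage points below that of uIRI (exact permutation p = 0.1, the smallest that 3 against 3 allow), and these groups did not overlap. Within a library the ratio of Cdkn1a to Cdkn1b was 0.574 and 0.850 in sham, 2.75, 2.82 and 2.67 in uIRI, and 2.19, 1.81 and 1.26 in uIRI+MSC, without overlap. The ratio of Cdkn2b to Cdkn2c was 0.236 and 0.417 in sham, 0.838, 1.05 and 1.58 among the uIRI libraries, and 0.381, 0.415 and 0.560 among those of uIRI+MSC, which overlapped sham. The 4 INK4 genes together held 26.4 to 40.0% of the sum in every library, without a separation of the groups.

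This order depends on the length used. The length that each FPKM value implies was 7580 bases for Cdkn1b, above both the 5113 bases of its locus and the 4552 bases of its exons in GENCODE M21, and for Cdkn1c it was 2815 against 2039 bases of exons. For Cdkn1a and Cdkn2d it was shorter than the exons, 3074 against 3553 and 1271 against 1574. An implied length above the locus was found for 889 of 14769 genes (6.02%), and the sources used here do not say how the authors set lengths. With the M21 exon length, Cdkn1c led in all groups, with counts per kilobase and per 1e6 counts of 10.9 (sham), 31.4 (uIRI) and 16.7 (uIRI+MSC). In uIRI it overlapped Cdkn1a at 21.2, and in uIRI+MSC Cdkn1a at 11.8 came after Cdkn1b at 13.5, with overlap. The difference in Cdkn1a share between uIRI and sham became 13.3 percentage points, so the direction was kept while the first place of Cdkn1a was not. Between the injured groups the shares then overlapped, with 21.1% in uIRI 1 below 21.3% in uIRI+MSC 1, at a difference of -2.86 percentage points. Changes of a single gene between groups do not involve the length.

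**Figure D3:**
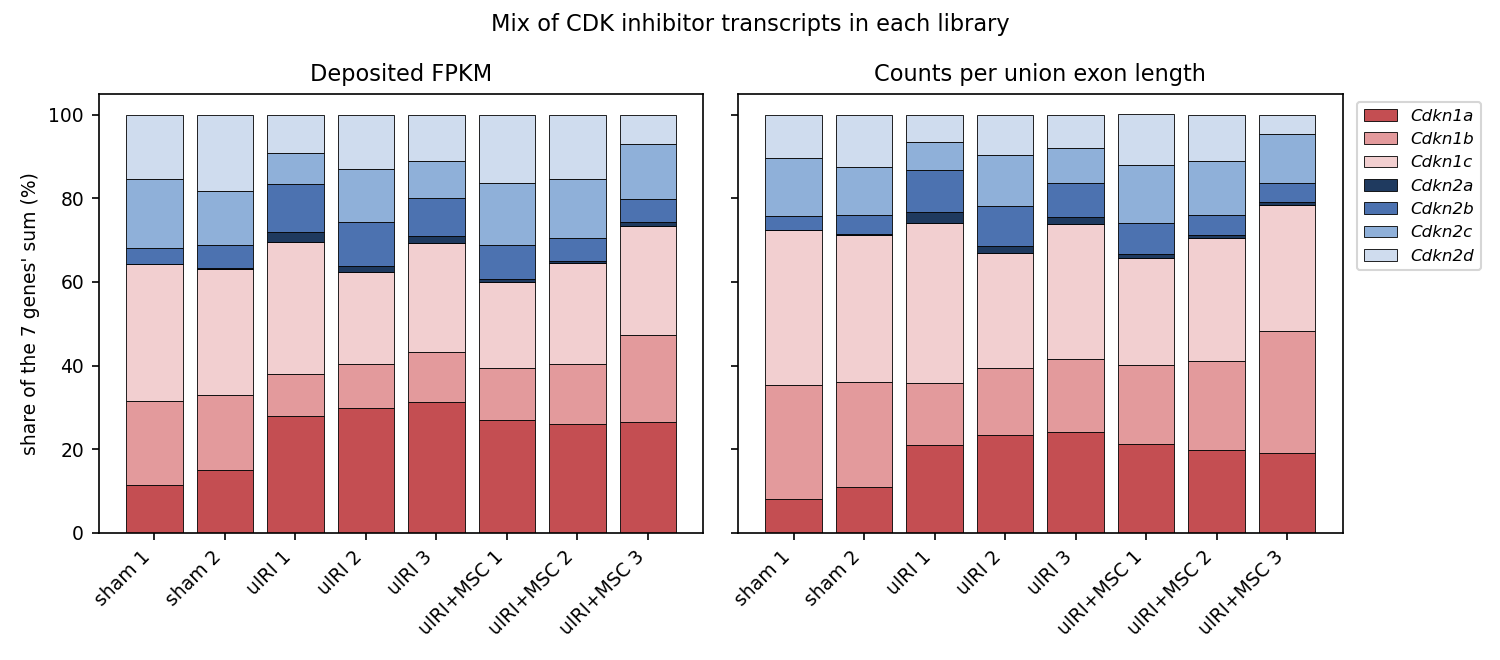
Share of each inhibitor gene in the sum over the 7 genes (y axis, percent, stacked) in each of the 8 libraries (x axis), from the deposited FPKM on the left and from counts per GENCODE M21 exon length on the right. On the left Cdkn1a takes 11.5 and 15.1% in sham and 26.0 to 31.4% in the injured libraries, and on the right Cdkn1b and Cdkn1c take larger shares.

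Among the 7 genes the smallest root mean square (RMS) difference between centred log2 CPM values over the 8 libraries was 0.325, for Cdkn1b and Cdkn2c. Both genes varied less than that around their own means (RMS 0.235 and 0.224), so this value does not show a shared profile. Cdkn1a and Cdkn2b came next at 0.336, well below their own spreads of 0.872 and 0.911. Cdkn2a was nearest to Cdkn2b at 0.615, and the least alike pair was Cdkn1b and Cdkn2a at 1.39. Among 12204 other genes with a mean of at least 1 FPKM, the nearest to Cdkn1a were Capn5 (0.084), Pla2g15 (0.098) and Trim5 (0.115). For Cdkn2b they were Csrp1 (0.179), Eln (0.197) and Pdlim1 (0.224), and for Cdkn2a Axin2 (0.275), Fbln1 (0.285) and Anxa1 (0.307). Cdkn1c was nearest to Tnfsf15 (0.162), Rassf9 (0.173) and Sulf2 (0.202). The values were smaller for genes of little spread, with Ddhd1 (0.058), Mysm1 (0.064) and Rnf217 (0.065) for Cdkn1b, and Eif4a-ps4 (0.063), Trim27 (0.069) and Ctps (0.073) for Cdkn2c. Eif4a-ps4 is named as a pseudogene, and its counts are uncertain where it shares reads with its parent gene. Cdkn2d was nearest to Rnaseh1 (0.137), Phf23 (0.155) and Fbl (0.160).

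The kinases and cyclins that the inhibitors act on were mostly higher with injury. In uIRI against sham 9 of 12 such genes passed as higher and 1 as lower, beside 28.3% and 26.3% of all genes. The median log2 change over the 12 was 1.64. Cdk1, the kinase of mitosis, rose by 2.07 ± 0.26 (adjusted p = 0.000271), Ccna2, a cyclin of DNA synthesis, by 1.92 ± 0.26 (0.000433), Ccnd2, a D-type cyclin, by 1.82 ± 0.22 (0.00023) and Cdk6, a target of INK4 proteins, by 1.46 ± 0.18 (0.000256). The gene that fell was Ccnd1, the D-type cyclin of highest level here, by 0.93 ± 0.17 (adjusted p = 0.00158). It was singled out after its value was seen, and with library size alone it stood at -0.27 and did not pass (0.174).

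Replication and mitosis genes rose as a whole list, 16 of 16, with a median of 1.73. Mcm3 and Mcm5, subunits of the replicative helicase, rose by 2.44 ± 0.16 (adjusted p = 2.85e-05) and 1.94 ± 0.18 (8.60e-05), Top2a, a topoisomerase, by 2.31 ± 0.18 (4.71e-05) and Cdc6, which loads the helicase, by 4.47 ± 0.40 (6.41e-05). Inhibitor transcripts and these division genes were thus higher in the same uIRI libraries. The pocket protein and E2F list moved in both directions, with 4 of 16 genes higher, 4 lower and 8 not passing, and a median of 0.02. That even split depended on the scaling, since with library size alone 8 were higher and 1 lower (median 0.68), beside 54.6% and 12% of all genes. The share of the list called higher was below the 28.3% of all genes. The repressor-type genes E2f8 and E2f7 rose by 4.03 ± 0.44 (adjusted p = 0.000153) and 2.04 ± 0.36 (0.00148). Lin52, a subunit of the complex that represses cell cycle genes in resting cells, fell by 1.26 ± 0.20 (0.000882) and E2f5 by 0.79 ± 0.17 (0.00477), the latter at -0.12 and not passing with library size alone.

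Genes for turnover of inhibitor proteins were divided, with 2 of 12 higher, 4 lower and 6 not passing, where 28.3% of all genes were higher and 26.3% lower. Dtl and Cks1b, which help to mark p21 and p27 for destruction, rose by 2.40 ± 0.32 (adjusted p = 0.000394) and 1.74 ± 0.34 (0.00269). Skp1a, a core subunit of the SCF ligase, fell by 1.33 ± 0.16 (0.000217), and Rnf123, part of another ligase of p27, fell by 0.82 ± 0.13 (0.000921) but stood at -0.15 and did not pass with library size alone. The median of the list was -0.28. With library size alone the balance turned, with 6 higher and 1 lower and a median of 0.39, beside 54.6% and 12% of all genes. Among 15 genes for known transcriptional activators of the inhibitors 6 rose and 1 fell, with a median of 0.46, led by Klf6 (2.41 ± 0.17, adjusted p = 2.97e-05), Klf4 (1.83 ± 0.23, 0.000284), Trp53, the gene of p53 (1.06 ± 0.14, 0.000413) and Ets2 (0.85 ± 0.12, 0.000421). Of 13 genes for repressors 4 rose and none fell, with a median of 0.32, a share near the 28.3% of all genes called higher. With library size alone 12 activators were higher and none lower (median 1.13), and 10 repressors were higher and none lower (median 0.98). The 4 repressor genes that rose were Twist1 (2.77 ± 0.46, adjusted p = 0.00117), the Polycomb genes Ezh2 (0.97 ± 0.18, 0.00231) and Cbx7 (0.44 ± 0.15, 0.0333), which are known for silencing the Cdkn2a locus, and Myc (0.76 ± 0.26, 0.0333). The other Polycomb genes of the list did not pass under TMM scaling.

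**Figure D4:**
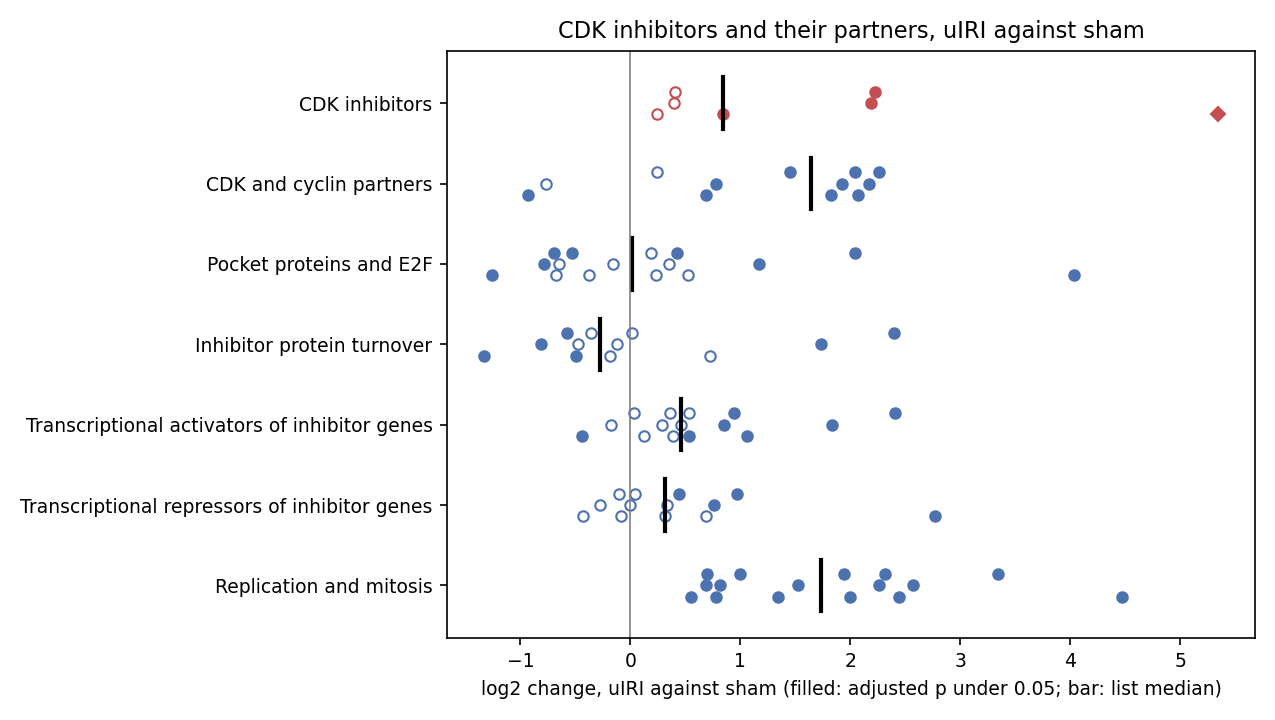
Log2 change in uIRI against sham (x axis) of the 7 inhibitor genes (red) and of the genes in 6 lists of their partners and regulators (blue), 1 point per gene, filled where the adjusted p was below 0.05, with a black bar at the median of each list. Cdkn2a is drawn as a diamond at its ratio of counts, and all 16 replication and mitosis genes lie right of 0 while the pocket protein and E2F list spreads to both sides under the TMM scaling shown (with library size alone 8 of its genes were higher and 1 lower).

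Between uIRI+MSC and uIRI the edgeR test called 0 genes of these 6 lists, and 0 of all 16576 genes. At an unadjusted p under 0.05, reached by 3418 of all genes, there were 2 lower kinase and cyclin genes and 1 higher pocket protein and E2F gene. There were also 2 lower repressor genes and 1 lower replication and mitosis gene. DESeq2 called 1 kinase or cyclin gene and 1 repressor gene lower, against 3.38% of all genes called lower. Of the 16 replication and mitosis genes the median difference was -0.10, and for the 12 kinases and cyclins it was -0.14. Against sham, uIRI+MSC had 15 of 16 replication and mitosis genes higher (median 1.55) and 9 of 12 kinases and cyclins higher with 2 lower (median 1.15). Among all genes 22.1% passed as higher and 20.3% as lower.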

How the data were processed

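Messenger RNA was isolated from total kidney RNA, fragmented and sequenced in 8 libraries, per the labels' protocols. Per the file headers, the authors deposited 1 table with a raw count and an FPKM value for each gene and library. The count values are whole numbers per gene, and the FPKM values the authors deposited relate each count to the length of the gene and the depth of the library, without TMM. The submitters' processing notes list, with GRCm38 and no role for each, the aligners HISAT2 2.0.4 and Bowtie2 2.2.6, the assembler StringTie 1.3.3b, SAMtools 1.9, edgeR 3.2.0 and FastQC 0.10.1. The counting program, its strand setting and the annotation release were not named there.

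Counts were filtered with filterByExpr (minimum count 10), which kept 16576 genes, scaled by TMM and fitted over all 8 libraries with edgeR 4.0.16 (glmQLFit with legacy=TRUE, glmQLFTest, 5 residual degrees of freedom) in R 4.3.3. P-values were adjusted by Benjamini-Hochberg over all tested genes of a comparison, at 0.05. Standard errors were taken as the absolute log2 change divided by the root of the F statistic. Log2 values of single libraries used a prior count of 2. Cdkn2a against sham is given as a ratio with an exact 95% interval because sham held 3 counts or fewer. Shares of FPKM were compared by exact permutation tests in SciPy 1.17.1. Pairs of libraries of a group differed by 24.3 to 90.8 times the variance of counting, so no pair was alike within sampling noise, which does not tell separate animals from repeat preparations. Depth limited the precision less than the libraries' own spread for genes of high count. The fit was tested on simulated data.

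The inhibitors are always named, with up to 4 genes of each pathway list by smallest p in uIRI against sham and the 3 genes of most similar profile for each inhibitor. Some genes of the marker lists are not reported here and were left out of the sums. The inhibitors and the lists were chosen with earlier results of these data known. Alternatives were DESeq2 1.42.0, limma-voom (limma 3.58.1), robust dispersions, legacy=FALSE, median-of-ratios factors, library size alone, no filter, at least 50 counts in 2 libraries, only the groups compared, a replicate block, and leaving out each library. For the share, they were other sums and lengths. Promoter windows and annotation came from RefSeq (GRCm38.p6) and GENCODE M21.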

Additional observations from a re-analysis of the deposited data

How the results depend on the processing

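With library size alone the median log2 change of all genes moved to 0.73 in uIRI against sham, where 7 inhibitors then passed as higher, to 0.55 in uIRI+MSC against sham, where 5 did, and to -0.16 between the injured groups. DESeq2 called 3 inhibitors lower in uIRI+MSC against uIRI, where the main count was 0. In uIRI+MSC against sham 1 inhibitor was higher with limma-voom, 1 with legacy=FALSE and 1 when only the groups compared were fitted. Leaving out 1 library gave 3 to 4 higher in uIRI against sham, 1 to 3 higher in uIRI+MSC against sham (1 without sham 1 or uIRI+MSC 1) and 0 in the other counts. Where 1 sham library was left, its spread was taken to be that of the remaining groups. Differences that changed sign, none of them past the threshold, were Cdkn1b in uIRI+MSC against uIRI (-0.136 with library size alone, -0.104 without uIRI 2, -0.172 without uIRI+MSC 3), Cdkn2c (-0.071 with library size alone) and Cdkn2d (0.062 without uIRI+MSC 3), and Cdkn2d in uIRI+MSC against sham (-0.081 without uIRI+MSC 1). Over all leave-one-out fits these ran from -0.172 to 0.16 for Cdkn1b and from -0.49 to 0.062 for Cdkn2d between the injured groups, and from -0.081 to 0.491 for Cdkn2d in uIRI+MSC against sham. The Cdkn1a share exceeded sham by 23.5 percentage points in uIRI and 19.6 in uIRI+MSC when only Cip/Kip genes were summed, and by 13.3 and 10.5 with the M21 exon length, a choice made after seeing the data. As a share of summed counts it differed by -5.28 between uIRI+MSC and uIRI. Leaving out 1 library gave 14.5 to 18.2, 11.4 to 15.0 and -4.1 to -2.31 percentage points for the 2 differences from sham, uIRI first, and for that between the injured groups. The cause of these shifts was not tested. A replicate block ended the call of Cdkn1c in uIRI against sham (0.80, adjusted p = 0.0691) and changed no other call of an inhibitor. Same-numbered libraries correlated at -0.209 to 0.111 after removal of group means, and 0 of 3 uIRI libraries correlated best with the uIRI+MSC library of their number. No sign of pairing by number was seen, but so few libraries per group cannot exclude it. Cdkn2a gave no value with the filter of 50 counts in 2 libraries, nor in uIRI+MSC against sham when only those groups were fitted. Its 1 count in sham limits its precision.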
